A study of Mus musculus with 6 samples.

Results

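The 33 genes described here encode proteins of autophagy and of the PI3P lipid pathway that autophagy shares with endosomes. They were taken as a listed set from the 32285 features of the count table by matching Ensembl identifiers to GENCODE M21 symbols. All 33 were found, and all 33 passed the filter on low counts. They were grouped into 6 genes of initiation, 10 of PI3P synthesis and recognition, 12 of ATG8 conjugation and 5 receptors or adaptors.

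Type 1 conventional dendritic cells (cDC1s), which take up antigen and present it to CD8 T cells, were sorted by FACS from the mLN, an abbreviation that the labels do not spell out. The mice were C57BL/6, and every animal of both groups had been given 50 µg of HDM by the intranasal route 24 h earlier, so no group without HDM was analysed here. The 3 wild-type (WT) libraries were set against 3 libraries of the genotype Vps33BdeltaDC (KO), a conditional knockout of Vps33b. VPS33B is a protein of the Sec1/Munc18 family that acts in endosomal and lysosomal trafficking. The sources used here do not give the Cre driver, the age of the mice or the number of animals behind each library. The spread that the p-values rest on is that of these samples and may be technical.

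In macroautophagy, starvation or damage signals activate the ULK1 kinase complex, which starts a membrane that closes around cytoplasm and then fuses with lysosomes. A class III PI 3-kinase built around PIK3C3 makes the lipid PI3P on that membrane, and on early endosomes, where proteins such as EEA1 and rabenosyn bind it. A pair of ubiquitin-like reactions then attaches ATG8 proteins (the LC3 and GABARAP families) to membrane lipid, and receptors such as p62 carry cargo to them. In dendritic cells parts of the same machinery also attach ATG8 proteins to phagosomes and take part in antigen handling. Several of these proteins are controlled mainly after translation, by phosphorylation, lipid attachment or degradation in the lysosome, which transcript counts do not measure.

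Total counts ran from 11755944 to 18450678 over the 6 samples. Levels are given in CPM, the count of a gene scaled by the size of its library. Vps33b was lower in all KO libraries, at 6.76 ± 1.66 CPM (SD, n = 3), than in WT libraries, at 16.4 ± 2.69 CPM (n = 3), and 41.3% of the WT level was left. The exact two-sided permutation test gave p = 0.1 for this gene, the smallest value that 3 against 3 libraries allow. In the edgeR quasi-likelihood fit the log2 fold change of Vps33b (KO over WT) was -1.28 with an SE of 0.27 (adjusted p = 0.834). The adjusted test used below for the members thus did not call the targeted gene itself. All 9 cDC1 markers were detected, with a summed level of 1737 to 2076 CPM in WT and 1610 to 2124 CPM in KO libraries, most of it from Irf8. Of the 9, 7 had a lower mean in KO, and without Irf8 the other 8 summed to 411, 643 and 410 CPM in WT and to 367, 367 and 385 CPM in KO, without overlap. Xcr1 was low, with a WT mean of 23.7 CPM and a KO mean of 8.83 CPM. Neither it nor Wdfy4 overlapped between genotypes (edgeR quasi-likelihood adjusted p = 0.834 for both). The part of this difference in the members' values was not tested. Markers of other cells were also present, at sums below that of all 9 cDC1 markers in each library. Without Irf8, the cDC1 sum lay below the monocyte and macrophage sum in KO replicate 3 (385 against 705 CPM). In KO replicate 1 it lay below the B-cell sum (367 against 400 CPM). Markers of type 2 conventional dendritic cells, mostly Irf4, summed to 100 to 163 CPM in WT and 125.5 to 227 CPM in KO. Of these 7 markers, 4 averaged under 1 CPM. Plasmacytoid dendritic cell markers, mostly Bst2, summed to 109 to 147 CPM in WT and 121 to 168 CPM in KO. Of these 6, 2 averaged under 1 CPM. Siglech was lower in KO without overlap, with means of 7.26 CPM in WT and 1.58 CPM in KO. Ccr9, Klk1 and Cox6a2 also had lower means in KO, and Bst2 and Tcf4 had higher ones. Monocyte and macrophage markers summed to 169 to 359 CPM in WT and to 171 to 705 CPM in KO, with the highest value in KO replicate 3. B-cell markers, mostly Ighm, summed to 165 to 290 CPM in WT and to 113 to 400 CPM in KO, with the highest value in KO replicate 1. All 6 B-cell and all 10 monocyte and macrophage markers averaged 1 CPM or more.

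No member was called between the genotypes. The edgeR quasi-likelihood test with Benjamini-Hochberg adjustment called 0 of the 33 members and 0 of all 12568 genes tested (0%) at an adjusted p under 0.05. DESeq2 called 10 genes and limma-voom 0, none of them a member. At an unadjusted p under 0.05, 3 members passed, or 9.09% of them, against 725 of all genes (5.77%). These were Gabarap and Atg5 with higher values in KO, against 2.71% of all genes in that direction, and Atg16l1 with a lower value, against 3.06%. Among the members, 17 had a log2 fold change (KO over WT) above 0 and 16 below, with a median of 0.01, against a median of 0.00 over all genes. The fold changes ran from -0.90 for Wipi1 to 0.46 for Atg10. Their median size without sign was 0.14 on the log2 scale, and it was 0.19 over all genes.

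The 3 KO libraries lay entirely above or below the 3 WT libraries for 7 members (21.2%). Over all genes tested the same was true of 1337 (10.6%). The 5 members higher in KO were Map1lc3b, Atg5, Atg10, Atg12 and Optn, against 5.46% of all genes, and the 2 lower were Uvrag and Atg16l1, against 5.18%. This count depended on how the libraries were scaled (TMM, RLE, upper quartile and plain library totals were tried). Under all 4 scalings, 2 of the members did not overlap, Uvrag and Atg16l1. The share over all genes is given for TMM only, so these 2 cannot be set against a background. The 95% interval of the fold change lay inside 1.5-fold in either direction for 23 members and inside 2-fold for 32, and Wipi1 was the exception.

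**Figure D1:**
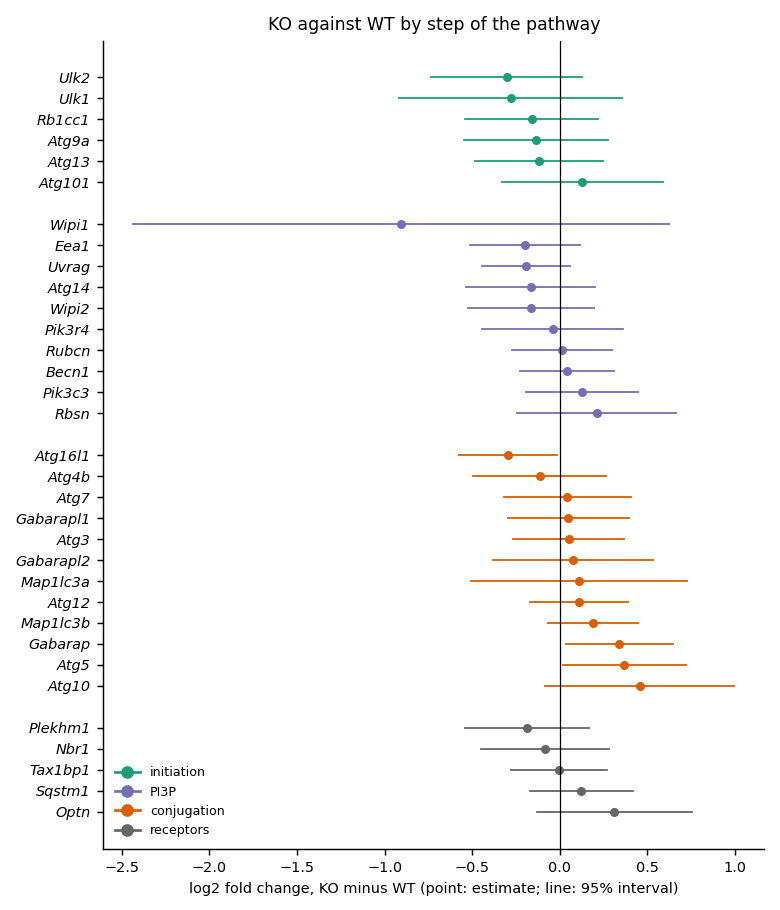
Log2 fold change of each member, KO over WT (x axis), with its 95% interval from the edgeR quasi-likelihood fit, by step (n = 3 libraries per genotype). Values run from -0.90 for Wipi1, with the widest interval, to 0.46 for Atg10, and 10 of the 12 conjugation genes lie above 0.

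Per kilobase of exon, the scale used here to set genes against each other, the members' levels spread widely. The length is that of all annotated exons of a gene merged. It can exceed that of the transcript expressed, so the order depends on the annotation. Sqstm1, which encodes the receptor p62, stood first at a mean of 441 CPM per kilobase over the 6 libraries. Gabarap followed at 207 and Gabarapl1 at 83.6 CPM per kilobase. Uvrag, Tax1bp1, Map1lc3b and Becn1 lay between 43.9 and 25.2 CPM per kilobase. The initiation scaffold Rb1cc1 was near the bottom at 3.49, with only Rbsn at 2.70 and Wipi1 at 0.46 CPM per kilobase below it. Neighbours such as Map1lc3b and Becn1, at 26.8 and 25.2 CPM per kilobase, did not differ beyond the spread between libraries.

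**Figure D2:**
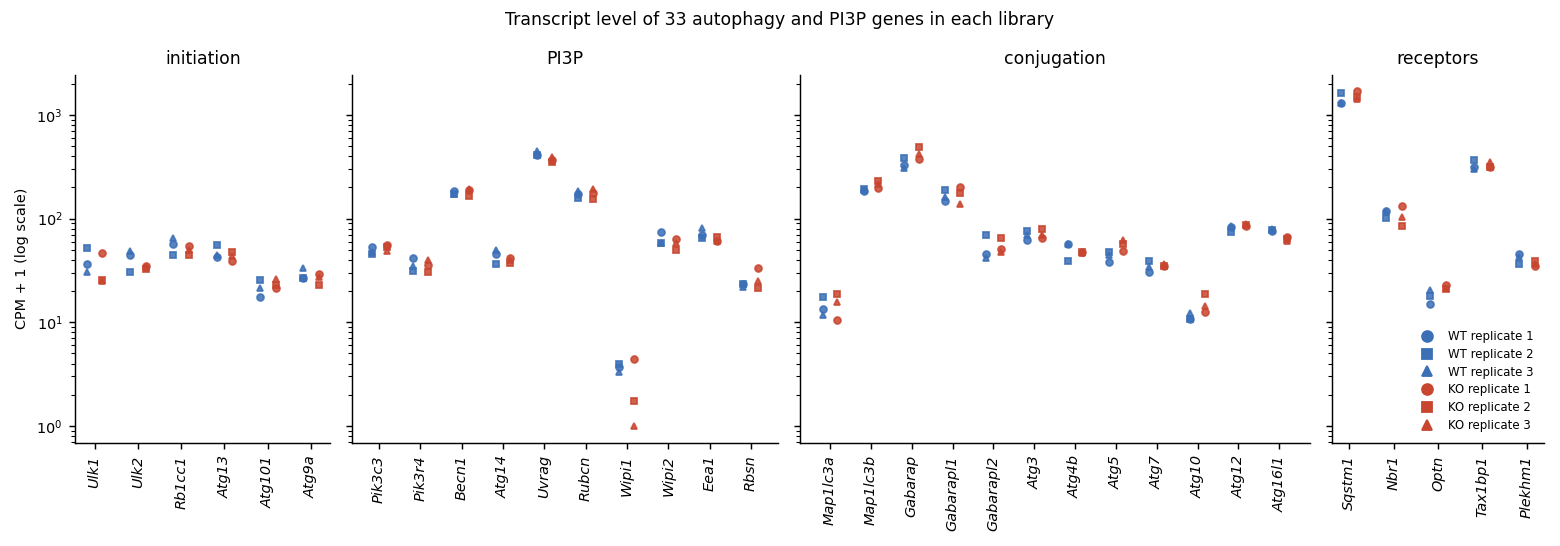
CPM + 1 (log axis, not divided by length) for each member in each of the 3 WT and 3 KO libraries, by step. The points of Sqstm1 are the highest, from 1302 to 1691 CPM, and those of Wipi1 spread most, down to 0 CPM in KO replicate 3, and the WT and KO points overlap for all but 7 of the 33 members.

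Of the 6 initiation genes, 5 had fold changes below 0 (median -0.15). None reached an unadjusted p under 0.05. The exception in sign was Atg101, which encodes a stabilising subunit of the ULK1 complex, at 0.13. Atg9a, encoding the lipid scramblase carried by the vesicles that seed the membrane, was at -0.14. The summed level of the step was 219, 229 and 237 CPM in WT and 220, 191 and 200 CPM in KO, so that KO replicate 1 lay within the WT range.

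Ulk1, the kinase that starts the process, measured 35.5, 50.9 and 29.5 CPM in WT and 45.9, 24.6 and 24.2 CPM in KO. WT replicate 2 and KO replicate 1 stood high, and the groups overlapped. The difference was -0.28 on the log2 scale with an SE of 0.29 (edgeR quasi-likelihood adjusted p = 0.909). It became -0.65 when KO replicate 1 was left out and -0.04 when WT replicate 2 was. Ulk2, a related kinase, measured 43.9, 29.4 and 48.1 CPM in WT and 34.2, 31.9 and 32.9 CPM in KO. Its WT values enclosed all 3 KO values, at a log2 fold change of -0.30 with an SE of 0.20 (edgeR adjusted p = 0.854).

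Rb1cc1 encodes FIP200, the scaffold of the complex, and measured 55.7, 43.1 and 63.4 CPM in WT and 53.5, 43.8 and 48.6 CPM in KO. Atg13, whose product links the kinase to FIP200, measured 41.5, 54.6 and 43.6 CPM in WT and 38.3, 47.0 and 42.9 CPM in KO. Both overlapped between genotypes, with log2 fold changes of -0.16 (SE 0.17) and -0.12 (SE 0.17).

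The PI3P genes fell into 4 above and 6 below 0, with a median log2 fold change of -0.10 and none at an unadjusted p under 0.05. The core of the kinase showed little difference between genotypes. Pik3c3, the catalytic subunit, had a log2 fold change of 0.13 (95% interval -0.19 to 0.45), Pik3r4, its regulatory subunit, -0.04, and Becn1 0.04. Becn1, the scaffold that joins the alternative partners ATG14 and UVRAG, measured 185, 171 and 170 CPM in WT and 188, 164 and 191 CPM in KO. Of its exonic bases, 43.9% overlap the opposite-strand gene Cntd1, and the strand setting of the counting is not given, so reads of the pair cannot be told apart.

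Of the alternative partners, Uvrag was the more abundant per kilobase, at 43.9 CPM against 9.45 CPM for Atg14. UVRAG directs the kinase to endosomes and late autophagy steps, and its gene (ENSMUSG00000035354, chromosome 7, 98885021 to 99141141, minus strand, mm10) measured 412, 412 and 444 CPM in WT. In KO it measured 366, 351 and 392 CPM. Every KO library lay below every WT library, with means of 423 ± 18.7 CPM (SD, n = 3) in WT and 370 ± 20.8 CPM (n = 3) in KO. The difference, -0.19 on the log2 scale with an SE of 0.12, did not pass (edgeR quasi-likelihood adjusted p = 0.854), and it was -0.08 with offsets for GC content and length. The opposite-strand gene Gm45187 overlaps 17.6% of its exonic bases.

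Atg14, the partner for new autophagosomes, measured 35.4 to 49.3 CPM in WT and 36.1 to 40.7 CPM in KO. Rubcn, encoding rubicon, an inhibitor of the UVRAG-containing kinase that is needed for LC3-associated phagocytosis, measured 158 to 182 CPM in WT and 153 to 190 CPM in KO. Its log2 fold change was 0.01 (SE 0.13). Both therefore overlapped between genotypes.

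Among the PI3P-binding proteins, Eea1, an endosomal tether, measured 69.0, 63.6 and 80.9 CPM in WT and 60.3, 65.4 and 60.0 CPM in KO. One KO library, replicate 2, exceeded the lowest WT library. Its log2 fold change was -0.20 with an SE of 0.14 (edgeR quasi-likelihood adjusted p = 0.855). Rbsn, encoding rabenosyn, a RAB-binding protein of early endosomes, was at 0.21 (SE 0.21), and Wipi2, which recruits ATG16L1 to PI3P, at -0.17 (SE 0.16).

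Wipi1, another PI3P-binding WIPI protein, was the least abundant member, and its library values are given here because they were seen to vary most. Its counts were 50, 44 and 44 in WT and 47, 13 and 0 in KO. KO replicate 1 therefore had the highest level of all libraries, 3.40 CPM, and KO replicate 3 had no count. A count of 0 allows up to 3 counts at this depth. The fitted log2 fold change of -0.90 had a 95% interval from -2.43 to 0.62, and it was -2.53 without KO replicate 1.

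**Figure D3:**
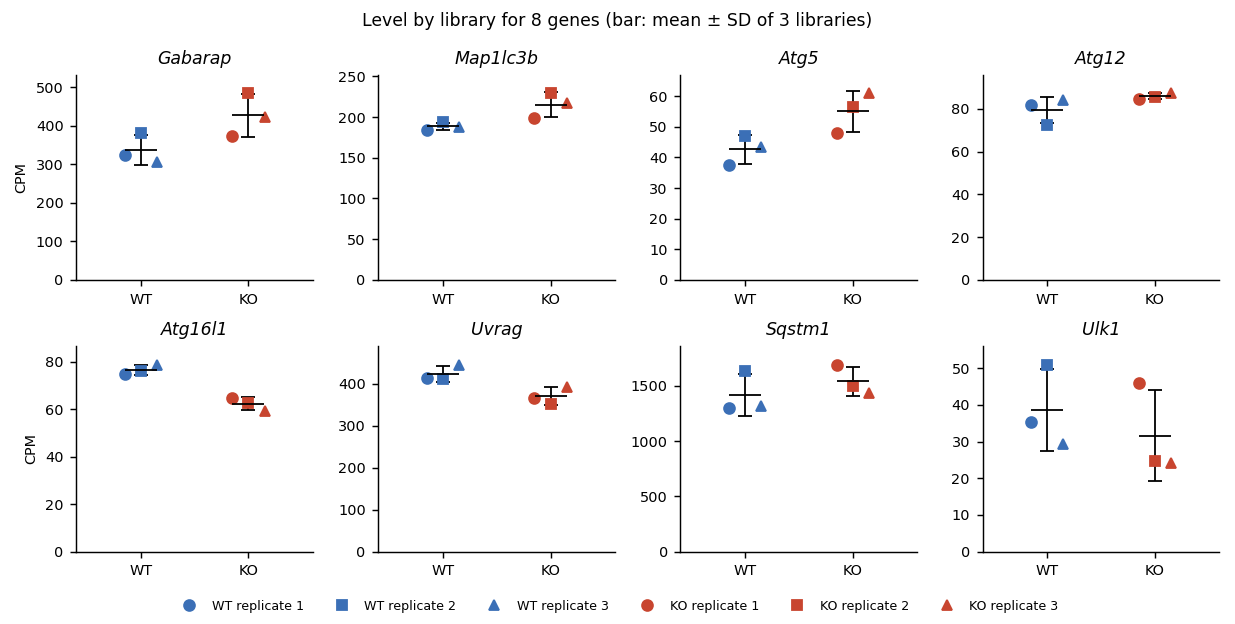
CPM of 8 members in each library (y axis, from 0), WT and KO side by side, with horizontal lines for the mean and error bars for the SD (n = 3). The KO points of Uvrag and Atg16l1 lie below all WT points, those of Atg5 lie above them, and those of Gabarap overlap with WT replicate 2.

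Of the 12 conjugation genes, 10 had fold changes above 0 (median 0.09), and none passed the adjusted test. All 5 ATG8 family members were above 0, with a median of 0.11 on the log2 scale. The whole ATG8 family summed to 716, 845 and 708 CPM in WT and to 832, 970 and 839 CPM in KO, where WT replicate 2 exceeded KO replicates 1 and 3. In bulk RNA of this kind, fewer cells of a type and less RNA per cell cannot be told apart.

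Gabarap encodes a GABARAP family protein that acts in late autophagosome maturation (ENSMUSG00000018567, chromosome 11, 69991143 to 69994951, plus strand, mm10). It measured 325, 381 and 307 CPM in WT and 374, 485 and 422 CPM in KO. WT replicate 2 lay just above KO replicate 1, and the other values separated. The means were 338 ± 38.4 CPM (SD, n = 3) and 427 ± 55.6 CPM (n = 3). The difference of 0.34 on the log2 scale had an SE of 0.14 and an edgeR quasi-likelihood adjusted p of 0.834. Without KO replicate 2 the log2 fold change was 0.22.

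Map1lc3b, the main LC3 protein followed as a marker of autophagosomes, measured 185, 193 and 188 CPM in WT and 199, 229 and 217 CPM in KO. All KO values lay above all WT values, by a margin of less than the SD of the KO group between the nearest libraries. This came to a log2 fold change of 0.19 with an SE of 0.12 (edgeR adjusted p = 0.854), and the groups overlapped under upper-quartile scaling. Of the 75-base windows of its longest transcript, 5.9% occur in annotated transcripts of genes elsewhere, as at Gm6055, and unannotated sequence was not searched. For Gabarapl2 the share was 13.3%, as at Gm3724, so that its counts are uncertain.

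Gabarapl1, Gabarapl2 and Map1lc3a had log2 fold changes of 0.05, 0.08 and 0.11, each smaller than its SE. Gabarapl1 ranged from 149 to 186 CPM in WT and from 138 to 201 CPM in KO, and the opposite-strand gene 1700101I11Rik overlaps 28.3% of its exonic bases. Map1lc3a ranged from 10.6 to 16.5 CPM in WT and from 9.41 to 17.9 CPM in KO. Gabarap made up 57.9%, 56.1% and 55.8% of the ATG8 family's CPM per kilobase in WT and 56.6%, 62.2% and 63.8% in KO. Gabarapl1 was next, at 25.4 ± 1.39% (SD, n = 3) in WT and 22.5 ± 4.69% (n = 3) in KO. These shares overlapped between genotypes. They rest on the merged exon lengths, and in plain CPM Map1lc3b, at a mean of 202 CPM, exceeded Gabarapl1, at 168 CPM.

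In the other conjugation reaction, ATG12 is joined to ATG5 by ATG7 and ATG10, and the product binds ATG16L1 to form the ligase that directs ATG8 proteins to membranes. Atg5 (ENSMUSG00000038160, chromosome 10, 44268358 to 44364291, plus strand, mm10) measured 37.6, 47.0 and 43.4 CPM in WT and 47.9, 56.3 and 61.0 CPM in KO. KO replicate 1 stood just above WT replicate 2, and the order was lost under upper-quartile scaling. Its log2 fold change was 0.37 with an SE of 0.16 (edgeR quasi-likelihood adjusted p = 0.834).

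Atg16l1 went the other way (ENSMUSG00000026289, chromosome 1, 87755870 to 87792428, plus strand, mm10). It measured 74.6, 76.1 and 78.6 CPM in WT and 64.8, 62.6 and 59.3 CPM in KO, 2 narrow ranges without overlap. The means were 76.5 ± 2.04 CPM (SD, n = 3) and 62.2 ± 2.78 CPM (n = 3). In the fit this was a log2 fold change of -0.30 with an SE of 0.13 (edgeR quasi-likelihood adjusted p = 0.834), and leaving out single libraries moved it between -0.33 and -0.27. With GC and length offsets it was -0.20.

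Atg10, the E2-like enzyme of this arm, measured 9.83, 9.86 and 11.4 CPM in WT and 11.4, 17.6 and 13.2 CPM in KO. WT replicate 3 and KO replicate 1 were almost equal, and the groups overlapped under RLE scaling. Its log2 fold change was 0.46 with an SE of 0.25 (edgeR quasi-likelihood adjusted p = 0.834). Atg12 measured 81.6, 72.6 and 84.2 CPM in WT and 84.7, 85.7 and 87.3 CPM in KO. Its groups were separated by less than 1 CPM, and the log2 fold change was 0.11 with an SE of 0.13 (edgeR adjusted p = 0.922).

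The opposite signs of the ligase subunits were described by ratios chosen after the values were seen. The ratio of Atg16l1 to Atg5 in CPM was 1.99, 1.62 and 1.81 in WT and 1.35, 1.11 and 0.97 in KO. The ratio of Atg12 to Atg5 was 2.17, 1.55 and 1.94 in WT and 1.77, 1.52 and 1.43 in KO. The former ratio did not overlap between genotypes, which had to follow because its 2 genes each separated, in opposite directions. The latter ratio overlapped. The ratios are not per length, so that only their variation between libraries can be read, and no p is given for either.

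The remaining enzymes showed small values. Atg7, the E1-like enzyme of both reactions, had a log2 fold change of 0.04 (95% interval -0.32 to 0.40), and Atg3, the E2-like enzyme for ATG8, 0.05 (95% interval -0.27 to 0.37). Atg4b, the protease that trims ATG8 proteins, was at -0.11 (SE 0.17). All 3 overlapped between genotypes.

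Promoter sequence was looked at because CACGTG is the core of the element bound by TFEB, a transcription factor of lysosomal and autophagy genes. RefSeq promoters (GRCm38.p6, the same assembly as mm10), from 250 bases before to 50 after the start, matched 27 of the 33 members. The motif CACGTG, which reads the same on both strands, occurred in 5 of them (Atg14, Rubcn, Atg3, Atg5 and Atg7), or 18.5%, against 8.09% of 27025 promoters of all genes. The longer form TCACGTGA, which contains the shorter one and is also its own reverse complement, was in 1 of the 27 (Atg3), against 1.12% of all promoters. Of the 5 genes only Atg5 separated between genotypes, and over all genes tested 10.6% did. Under upper-quartile scaling Atg5 did not separate. A link between the motif and the genotypes was not tested. Gabarap (chr11:69991120-69991419) and Atg5 (chr10:44268089-44268388) are shown as the members with higher KO values and the smallest p, and Atg3 (chr16:45158579-45158878) as the promoter with 2 copies. All 3 are on the plus strand and are written 5′ to 3′, with CACGTG in capitals.
Gabarap: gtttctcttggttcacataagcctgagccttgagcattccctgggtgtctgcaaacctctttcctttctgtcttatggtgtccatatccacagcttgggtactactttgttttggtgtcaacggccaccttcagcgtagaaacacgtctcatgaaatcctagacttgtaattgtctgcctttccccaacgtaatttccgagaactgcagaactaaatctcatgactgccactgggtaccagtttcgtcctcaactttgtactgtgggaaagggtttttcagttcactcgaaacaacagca
Atg5: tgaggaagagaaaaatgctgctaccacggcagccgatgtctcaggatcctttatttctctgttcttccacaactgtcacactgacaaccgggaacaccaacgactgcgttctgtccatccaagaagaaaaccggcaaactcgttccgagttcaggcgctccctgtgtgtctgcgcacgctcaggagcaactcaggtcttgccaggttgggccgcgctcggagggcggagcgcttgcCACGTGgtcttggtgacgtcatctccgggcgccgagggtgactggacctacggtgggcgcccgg
Atg3: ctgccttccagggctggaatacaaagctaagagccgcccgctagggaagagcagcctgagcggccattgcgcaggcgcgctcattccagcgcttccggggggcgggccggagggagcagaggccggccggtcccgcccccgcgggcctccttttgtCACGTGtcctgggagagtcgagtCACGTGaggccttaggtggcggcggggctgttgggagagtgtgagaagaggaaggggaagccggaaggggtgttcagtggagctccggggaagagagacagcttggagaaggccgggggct

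In Atg5 the motif begins 14 bases before the start, and in Atg3 94 and 71 bases before it. Gabarap has no copy in this window. The windows follow RefSeq starts, and that of Gabarap lies mostly inside the gene as GENCODE places it, from 69991143. Bases before the GENCODE start were therefore hardly examined for Gabarap. The windows of Atg14, Rubcn and Atg7 also lie inside the GENCODE gene. A match is only a description of these letters.

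Among the receptors and adaptors, 2 had fold changes above 0 and 3 below, with a median of -0.01. None reached an unadjusted p under 0.05. Sqstm1 was the most abundant member of all (chromosome 11, 50199366 to 50210827, minus strand, mm10). Its product p62 links ubiquitinated cargo to LC3 and is itself degraded by autophagy. It measured 1302, 1634 and 1316 CPM in WT and 1691, 1503 and 1433 CPM in KO. WT replicate 2 and KO replicate 1 were the highest, and WT replicate 2 exceeded the other KO libraries. The log2 fold change was 0.12 with an SE of 0.13 (edgeR quasi-likelihood adjusted p = 0.917). The opposite-strand gene Mrnip overlaps 17.3% of its exonic bases.

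Tax1bp1, a receptor related to p62 in function, measured 315, 368 and 302 CPM in WT and 317, 315 and 349 CPM in KO. The groups overlapped, at a log2 fold change of -0.01 (SE 0.13). Nbr1, another ubiquitin-binding receptor, was at -0.09 (SE 0.17).

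Optn, encoding optineurin, a receptor for mitochondria and bacteria, measured 14, 16.9 and 19.4 CPM in WT and 21.9, 20.1 and 20.6 CPM in KO. All KO values lay above all WT values. Its log2 fold change was 0.31 with an SE of 0.20 (edgeR quasi-likelihood adjusted p = 0.854). Plekhm1, an adaptor that joins ATG8 proteins and RAB7 to the fusion machinery at lysosomes, measured 45.1, 35.5 and 42.0 CPM in WT and 33.6, 38.4 and 35.8 CPM in KO. The groups overlapped (log2 fold change -0.19, SE 0.16, edgeR adjusted p = 0.888).

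The steps showed no common direction by library. KO replicate 2 held the highest value for 5 of the 12 conjugation genes and the lowest for 6 of the 10 PI3P genes. The mean centred log2 level of the conjugation genes was -0.12, 0.04 and -0.08 in WT and -0.05, 0.18 and 0.03 in KO. That of the initiation genes was -0.01, 0.09 and 0.12 in WT and 0.04, -0.17 and -0.08 in KO. For both steps the genotypes overlapped. Of the 33 members, only Ulk1, Gabarapl1, Sqstm1, Rbsn and Wipi1 were each highest in WT replicate 2 and KO replicate 1 within their genotype. This pattern was picked out after the values were seen. These libraries also had the highest B-cell marker sums, 290 and 400 CPM, made up mostly of Ighm at 254 and 390 CPM. The part of those cells in the values was not tested.

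**Figure D4:**
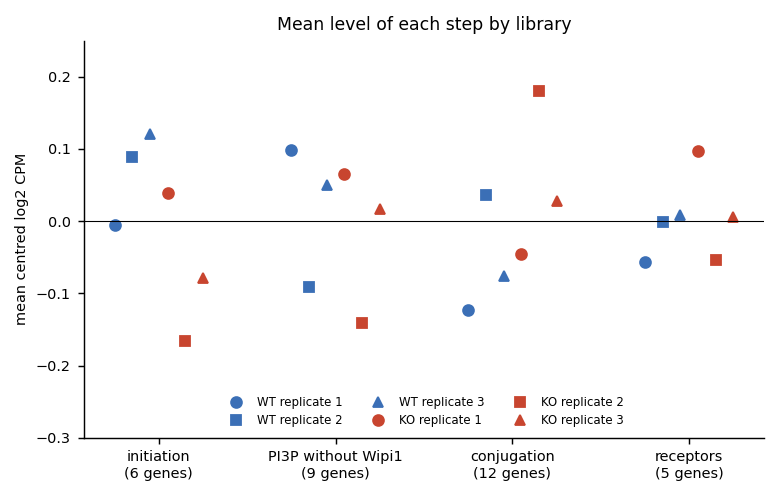
Mean over the members of each step of log2 CPM centred on the gene's mean (y axis), in the 3 WT and 3 KO libraries, with Wipi1 left out of the PI3P genes. The conjugation genes are highest in KO replicate 2 at 0.18 and the initiation genes lowest there at -0.17, and the genotypes overlap in each step.

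Gene length moved with the fold changes over the whole table. Among 4 groups of genes of equal size by exonic length, in the shortest, up to 2667 bases, the median log2 fold change was 0.10, and in the longest, from 6661 bases, it was -0.07. The conjugation genes were short, with a median of 2753 bases, and the PI3P genes long, at 8130.5 bases. With offsets for GC content and length, added to the edgeR fit, the step medians were 0.11 for conjugation, 0.02 for PI3P, -0.06 for initiation and 0.08 for receptors, and the median of all genes was 0.05. Gabarap was then at 0.30 and Atg5 at 0.33.

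**Figure D5:**
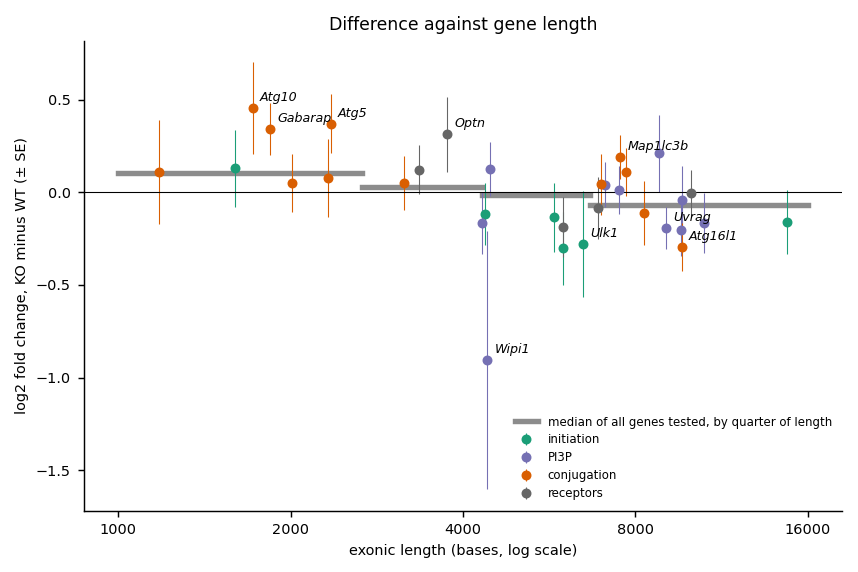
Log2 fold change, KO over WT (y axis), against exonic length in bases (log axis) for the members (points, bars ± SE, coloured by step), with grey lines for the median of all tested genes in each of 4 groups of length. The medians of all genes run from 0.10 in the shortest group to -0.07 in the longest.

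Other genes of the pathway gave no called gene either. Of 76 further genes in 3 lists, 75 were found and tested by edgeR, 0 passed the adjusted test and 2 (2.67%) had an unadjusted p under 0.05, against 5.77% of all genes. The median log2 fold change was 0.03 for 31 further ATG machinery genes, 0.04 for 27 genes of PI3P turnover and binding and 0.04 for 17 genes of nutrient control and TFEB.

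Of the 75, 7 (9.33%) had groups that did not overlap, 5 higher in KO and 2 lower (Atg2b and, named after its values were seen, Atg9b), against 10.6% of all genes. The pair that passed without adjustment had groups that did not overlap. Atg2b, encoding a lipid transfer protein of the growing membrane, averaged 24.0 ± 4.27 CPM (SD, n = 3) in WT and 15.4 ± 3.54 CPM (n = 3) in KO (log2 fold change -0.63, SE 0.23, edgeR quasi-likelihood adjusted p = 0.834). Snx3, encoding a PI3P-binding sorting nexin that works with retromer, measured 96.2, 105 and 97.1 CPM in WT and 119, 149 and 123 CPM in KO (log2 fold change 0.40, SE 0.13, edgeR quasi-likelihood adjusted p = 0.834). The rule named 2 genes of each list by p, and the others it gave were Ykt6, a SNARE of autophagosome fusion (0.37, SE 0.17), Mtmr9, an inactive myotubularin (0.31, SE 0.17), Lamtor1, the lysosomal anchor of the Ragulator complex (0.28, SE 0.15), and Rraga, a Rag GTPase (0.28, SE 0.18), all log2 fold changes with overlapping groups.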

How the data were processed

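The authors deposited raw counts per Ensembl gene for 6 libraries, not normalized. HISAT2 2.0.5, HTSeq and mm10 are named in the submitters' processing notes, and Trizol RNA and paired reads of 150 bases per the labels' protocols. The annotation release, strand setting and treatment of multiply mapped reads are not known from these sources. Symbols, positions and exonic lengths came from GENCODE M21 (32235 features named, 99.8%).

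Genes were kept by filterByExpr (12568), scaled by TMM and tested, KO against WT, with edgeR 4.0.16 in R 4.3.3 (glmQLFit with robust estimation and the newer quasi-likelihood method, glmQLFTest), with Benjamini-Hochberg adjustment over all genes at 0.05. The common biological coefficient of variation was 30.1%. The fit was tested on simulated data. Of 50 genes changed 1.5-fold it called 6 (12%), of 50 changed 2-fold 31 (62%) and of 50 changed 4-fold 47 (94%). Of its 137 calls, 11 were false. Changes of 1.5-fold were thus mostly missed at this number of libraries. DESeq2 1.42.0, limma-voom 3.58.1 and other scalings and filters were alternatives. CPM are TMM-normalized.

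The members and lists were chosen with earlier results of these data known. Library values are given for the 2 most abundant members of each step, the 2 with the smallest p, and those whose groups do not overlap, and for others after their values were seen. Of the other lists, the 2 genes with the smallest p are named. Every pair of libraries differed by more than sampling noise.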

Additional observations from a re-analysis of the deposited data

How the results depend on the processing

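In every alternative listed here, 0 members were called, and the lowest adjusted p of any member by edgeR, DESeq2 or limma-voom was 0.253 (Gabarap without KO replicate 1). Of the 33 members, 20 kept their sign in all 16 alternatives. The count of genes called was 0 in the comparison as reported, 3 without the filter on low counts and 10 by DESeq2, and 0 to 7 when single libraries were left out, 7 without KO replicate 1. Genes at an unadjusted p under 0.05 numbered 376 to 1621 (376 without KO replicate 2, 444 without KO replicate 3, 1621 without KO replicate 1). Members at that threshold numbered 0 to 6, with 6 without KO replicate 1 and 0 without WT replicate 1, WT replicate 3, KO replicate 2 or KO replicate 3. The members' median log2 fold change ran from -0.061 (without KO replicate 3) to 0.017 when single libraries were left out. The Vps33b log2 fold change ran from -1.42 to -1.11. The cause of these shifts was not tested. The members whose groups did not overlap numbered 7 under TMM, 6 under RLE, 5 under upper-quartile scaling and 5 with plain totals. The share over all genes, 10.6%, is for TMM only, so the other counts cannot be set against a background.

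The labels do not say whether replicate numbers pair the samples. Deviations of same-numbered libraries from their group means correlated at 0.01, 0.03 and -0.00. With 3 libraries per group this cannot settle whether they were paired. With the number as a block, 0 genes were called, 942 genes and 3 members had an unadjusted p under 0.05, and the members' median was 0.01. The older quasi-likelihood method gave 629 genes and 3 members. That method and the count of non-overlapping members under other scalings were chosen after seeing the data. The limit given for a count of 0 covers counting error only, whereas the intervals of fold changes rest on the fitted spread between libraries. Wipi1 has few counts and a wide spread between the KO libraries.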
